A study of Mus with 8 samples.

Results

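Binding of C/EBPβ was described around 5 genes of the fat cell, Lpl, Fabp4, Scd1, Plin1 and Adipoq, in 3T3-L1 cells before and early after adipogenic induction. The members were all C/EBPβ peaks listed inside 1 mm9 window per gene, and the windows covered 1.07 Mb together. Peaks of the 2 cell types at 4 h were merged into 1 region where they overlapped by at least 1 bp, which gave 43 regions in the windows out of 28620 regions in all. The series measured C/EBPβ by ChIP-seq with 4 ChIP and 4 input samples, 1 of each per condition. C cells were 3T3-L1 cells, a mouse preadipocyte line, infected with a lentivirus carrying a scrambled hairpin. P cells carried a lentiviral hairpin against Prep1, a homeodomain transcription factor, and both cell types had been selected in puromycin. Chromatin was taken at day −2, before the hormones were added, and at 4 h after the change to medium with dexamethasone, 3-isobutyl-1-methylxanthine and insulin. Names of the peaks inside both 4 h lists carry an hour tag of 5, which differs from the labelled 4 h. The question was whether C/EBPβ occupied these loci differently when Prep1 was down-regulated. With 1 library per condition no test between conditions was possible, and every interval here is a 95% interval of counting error only. Peak lists hold no expression, so neither the cell type nor the level of Prep1 could be checked in these data.

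C/EBPβ is a basic leucine zipper factor that appears within hours of adipogenic induction. It binds enhancers together with other early factors and precedes C/EBPα and PPARγ, the factors that drive the adipocyte program. The 5 genes are markers or products of adipocytes. Lpl encodes lipoprotein lipase, which releases fatty acids from circulating triglyceride, and Fabp4 encodes the fatty acid-binding protein that carries them inside the adipocyte. Scd1 encodes stearoyl-CoA desaturase, which makes monounsaturated fatty acids, and Plin1 encodes perilipin, the coat protein of the lipid droplet. Adipoq encodes adiponectin, a hormone secreted by adipocytes.

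The windows were empty before induction and held peaks of both cell types at 4 h. At day −2 neither C cells nor P cells had a listed peak in any of the 5 windows. Those lists were short and held 838 peaks (C cells) or 1653 peaks (P cells). A window with no peak was therefore common at day −2, when between 5.84% and 6.54% of windows of these sizes elsewhere held a C peak and between 10.5% and 11.5% held a P peak. At the mean density outside the windows, 0.341 C peaks and 0.673 P peaks would have fallen into the 5 windows. A count of 0 allows up to 0.358% of the C list and 0.181% of the P list. Absence from a list means that no peak passed the authors' p threshold at this depth, not that no C/EBPβ was bound.

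At 4 h the windows held 17 C peaks and 41 P peaks. The mean density elsewhere corresponds to 5.50 and 10.9 peaks, so the loci held 3.09 for C cells and 3.77 for P cells times that density. The P to C ratio of peaks was 2.41 (1.34 to 4.53), and the ratio outside the windows was 1.97 (1.93 to 2.02), inside the interval of the 5 loci. The ratio was 1.57 (0.769 to 3.32) without Lpl and 4.00 (1.71 to 10.8) without Scd1, so these 2 loci set its size. Cutting the P list by rank of p to the length of the C list lowered it to 1.24 (0.621 to 2.49). Equal lengths make the ratio over the whole lists even by construction, so 1.24 is not to be read against 1.97. Depth was alike in the 4 ChIP libraries, between 7.82 and 7.85 M reads as the recovered background implies. The P library had the higher values over the whole list, with a median fold enrichment of 10.9 over its 26713 peaks against 9.07 over the 13525 peaks of C cells, and its part in the differences at the 5 loci was not tested.

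The loci differed widely in number of peaks. Lpl held 3 C peaks and 19 P peaks, Scd1 held 10 and 13, Fabp4 held 1 and 4, Plin1 held 1 and 3, and Adipoq held 2 and 2. Each number was set beside windows of the same size laid end to end over chromosomes 1 to 19 and X. At Lpl, 16.9% of windows elsewhere had at least as many C peaks, but 0.242% (28 of 11573) had at least as many P peaks. At Scd1 the share was 0.415% for C cells and 1.33% for P cells. Both of these loci were thus dense, Lpl in P cells and Scd1 in both cell types. At Fabp4 the share was 43.0% for C cells and 21.8% for P cells. They were 43.7% and 31.2% at Plin1, and 26.1% and 42.5% at Adipoq. Numbers of peaks at Fabp4, Plin1 and Adipoq were therefore common ones for windows of their size.

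**Figure D1:**
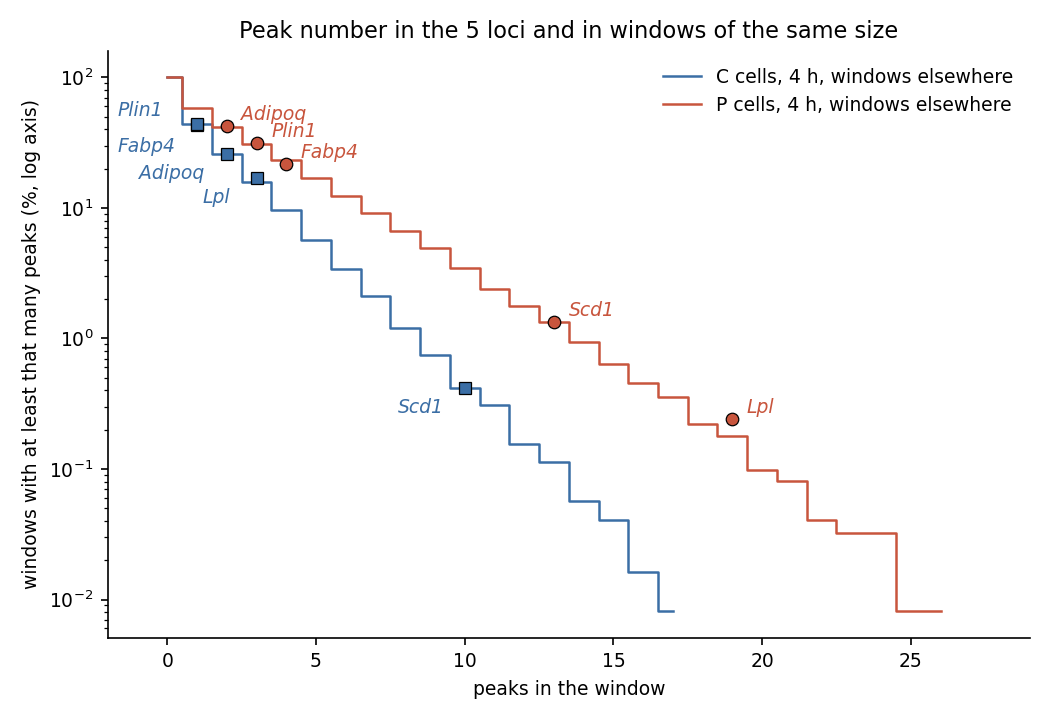
Share of windows elsewhere, in percent on a log axis, that held at least the number of 4 h peaks on the horizontal axis, for C cells and P cells. Steps show windows of the Scd1 size and points show the 5 loci, each against windows of its own size; Lpl in P cells lies at 0.242% and Scd1 in C cells at 0.415%, while Fabp4, Plin1 and Adipoq lie at 21.8% or higher.

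Of the 43 regions, 15 were listed in both cell types, 26 in P cells alone and 2 in C cells alone. The P alone share was 60.5% (45.6 to 73.6) and was 53.0% elsewhere, within the interval. The C alone share was 4.65% (1.28 to 15.5) and was 6.67% elsewhere. Of the 26 P alone regions 16 were at Lpl, and the P alone share was 41.7% without that locus. Regions listed in P cells alone were weaker than the shared ones in the P list, as they were elsewhere. Their median −log10 p, the peak caller's measure of how far the fragments exceed the input background, was 14.2 (range 6.68 to 40.3) against 34.4 (22.8 to 145) for shared regions. Elsewhere the medians were 15.3 and 33.8.

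**Figure D2:**
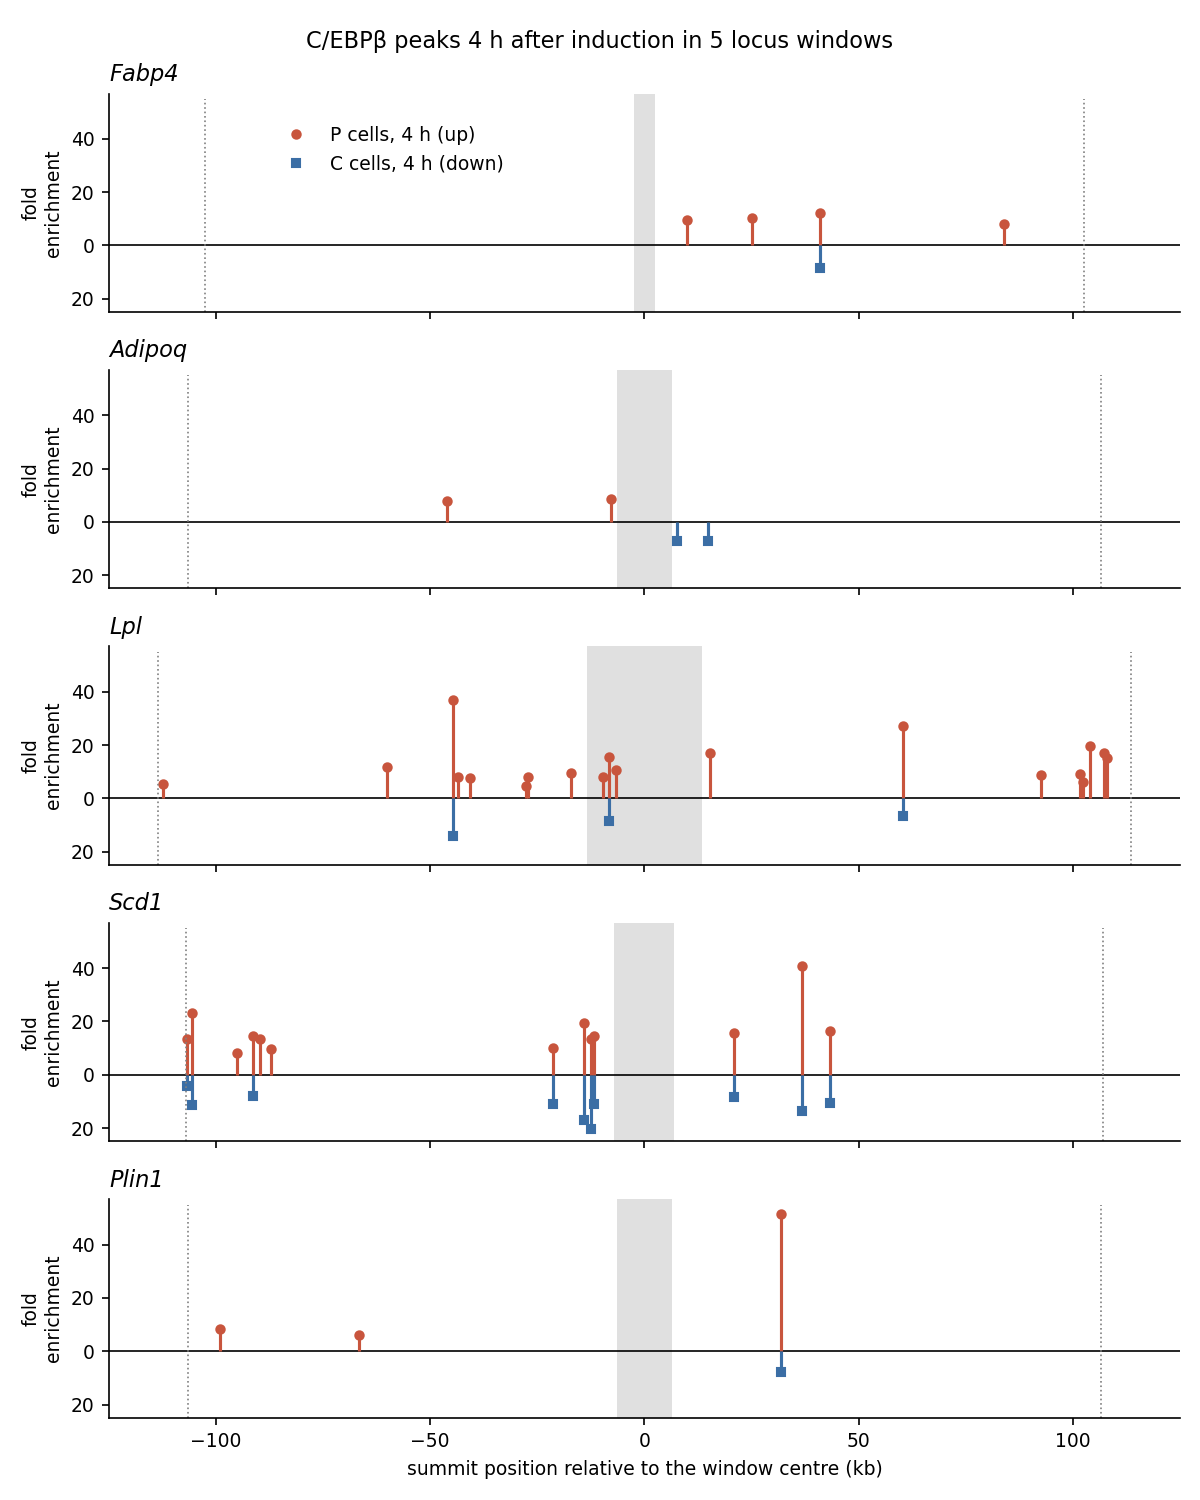
Summits of the 4 h peaks at the 5 loci by distance from the window centre in kb, with fold enrichment in P cells drawn upwards and in C cells downwards. The grey band is the central stretch left after taking 100 kb from each window end, and dotted lines are the window ends; Lpl shows 19 P peaks over 3 C peaks, Scd1 shows 13 over 10, and the highest bar is the P peak at Plin1 with a fold enrichment of 51.6.

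Each shared region was compared by fold enrichment, which divides the ChIP fragments at the summit by the input background around it after adding 1 to both, and by the fragments themselves. Fold enrichment was higher in P cells at 13 of the 15 shared regions (86.7%), and elsewhere at 82.1%. It was at least 1.5 times higher in P cells at 10 of 15 (66.7%), where 51.6% of shared regions elsewhere were, and at least 1.5 times higher in C cells at 1 of 15, where 3.56% were. The median log2 P/C ratio was 0.87 (range −0.63 to 2.75) for fold enrichment and 0.83 (0.00 to 2.14) for fragments, beside 0.62 and 0.70 elsewhere. The median for fold enrichment was 1.40 without Scd1, which supplied 10 of the 15 regions. The 95% interval of the fragment ratio lay above 1 at 7 regions, included 1 at 8 and lay below 1 at 0. Elsewhere it lay above 1 at 40.2% of shared regions and below 1 at 0.226%. The shared regions thus leaned to P cells much as shared regions did across the genome. P peaks were the wider ones at 13 of 15 regions, with a median width of 392 bp against 268 bp in C cells. Elsewhere they were the wider ones at 74.0%, with medians of 285 bp and 243 bp. The summits lay a median of 10.0 bp apart at the loci and 15.0 bp apart elsewhere. A higher value in a culture can come from more cells with C/EBPβ at a site or from more binding per cell, which cannot be told apart.

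**Figure D3:**
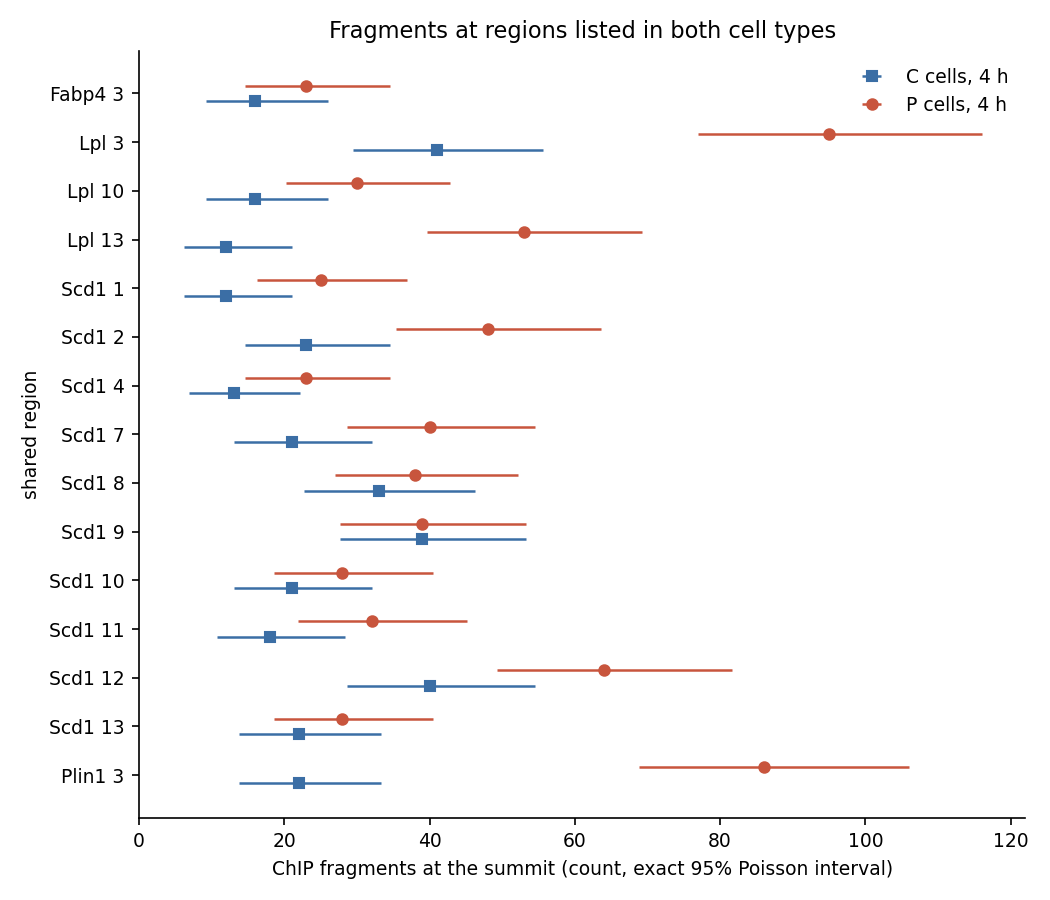
Fragments at the summit in C cells and P cells for the 15 shared 4 h regions, with exact 95% Poisson intervals of counting error, 1 library each. The widest gaps are at Lpl region 3 (41 and 95 fragments), Lpl region 13 (12 and 53) and Plin1 region 3 (22 and 86), and Scd1 region 9 has 39 in both.

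**Figure D4:**
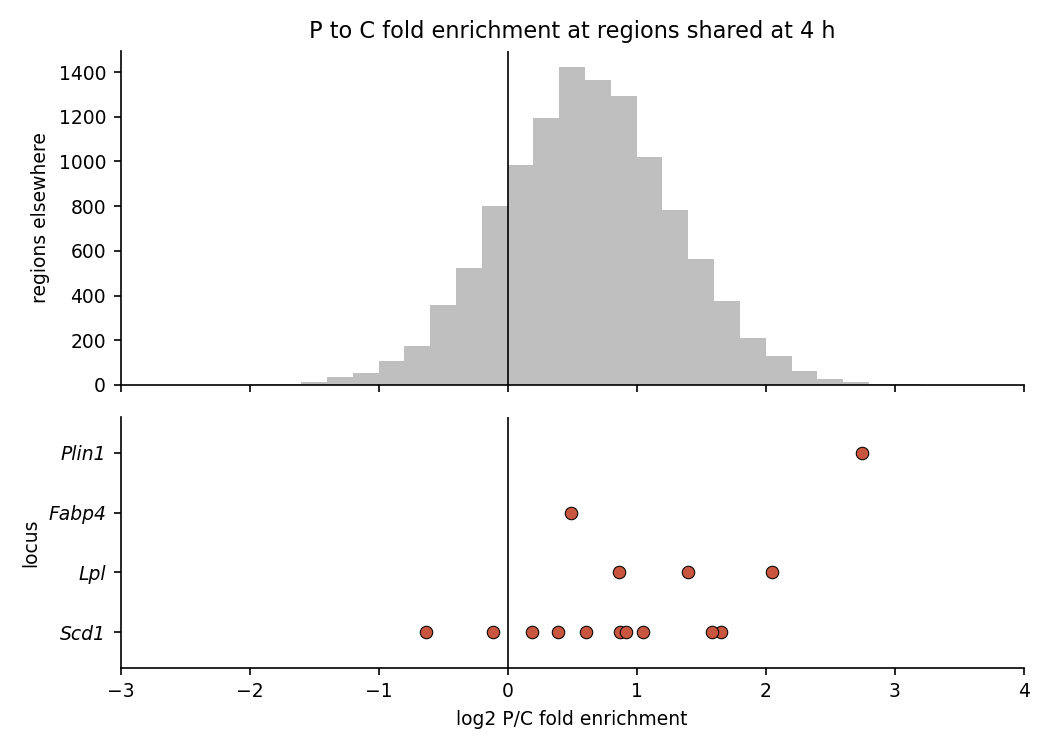
Histogram of the log2 P/C ratio of fold enrichment over the 11517 shared 4 h regions elsewhere, with the values of the 15 shared regions at the 5 loci by gene. The median is 0.62 elsewhere and 0.87 at the loci, and the Plin1 region at 2.75 lies far out on the P side while 2 Scd1 regions lie below 0.

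In the window around Lpl, the lipase gene, C/EBPβ peaks were far more numerous in P cells than in C cells. The window chr8:71304000-71531000 held 19 P peaks and 3 C peaks, a ratio of 6.33 (1.86 to 33.4). All 3 C peaks had a P peak on them, and 16 regions were listed in P cells alone. These 16 had a median −log10 p of 15.6 (range 6.68 to 40.3), under the median of 20.0 of the whole P list. The weak ones among them, each listed in 1 library only, are not shown to differ between the cell types. Among windows elsewhere with as many C peaks, the median number of P peaks was 5 and the highest was 13, so 0 of 736 reached the 19 of Lpl. With the P list cut to the length of the C list, Lpl kept 8 P peaks, a number that 3 of the 736 windows (0.408%) reached. The window shortened by 50 kb at each end held 12 P peaks. In RefSeq order Ints10, Csgalnact1 and Sh2d4a lie on one side of Lpl and Slc18a1, Atp6v1b2 and Lzts1 on the other, so peaks in this window cannot be tied to Lpl itself.

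The strongest Lpl peak was the same region in both cell types. Region 3, numbered by rising coordinate within a locus, spanned chr8:71372676-71373071 in C cells and chr8:71372652-71373102 in P cells. It had a fold enrichment of 14.0, a −log10 p of 39.4 and 41 fragments (29.4 to 55.6) in C cells. In P cells it had a fold enrichment of 37.0, a −log10 p of 130 and 95 fragments (76.9 to 116). The intervals of the fragments did not overlap, and the P to C ratio of fragments was 2.32 (1.59 to 3.43). Among shared regions elsewhere, 12.2% had a ratio of fold enrichment at least as high. Only 1.27% of the P list ranked at or above this peak by −log10 p. It lay 31.1 kb below the central stretch of the window, which is what remains after 100 kb is taken from each end and is where the window rule places the gene. Gene positions in mm9 were not checked, so distances here are from that stretch and not from a gene.

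Among the 3 shared Lpl regions the highest P to C ratio was on the other side of the central stretch. The P alone regions have no C value to compare. Region 13 spanned chr8:71477840-71478196 in C cells and chr8:71477748-71478183 in P cells, 46.9 kb above the central stretch. Fold enrichment was 6.52 for C cells and 27.0 for P cells, and −log10 p was 10.2 and 70.1. The summits held 12 fragments (6.20 to 21.0) in C cells, whereas P cells had 53 (39.7 to 69.3), a ratio of 4.42 (2.33 to 9.08). Of shared regions elsewhere, 0.512% had a fragment ratio as high and 1.71% a ratio of fold enrichment as high. The C and P summits were 217 bp apart here, the widest separation among the 15 shared regions. It was the 1 region of the 15 with summits over 100 bp apart, so it does not count as shared where summits must lie within 100 bp, and its ratio compares a different summit in each list.

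Inside the central stretch Lpl had 3 regions and the other 4 loci had 0. The stretch was longest at Lpl, at 27.0 kb against 5.0 kb at Fabp4, 13.0 kb at Adipoq and Plin1 and 14.0 kb at Scd1, and Lpl had the most regions, so the 3 are not shown to be particular to it. Region 10, at chr8:71409138-71409333 in C cells and chr8:71409031-71409422 in P cells, was the shared one. Its fold enrichment was 8.52 in C cells and 15.5 in P cells, its −log10 p was 15.0 and 32.8, and its 16 and 30 fragments gave a ratio whose interval included 1 (1.88, 0.990 to 3.68). Beside it were P alone regions at chr8:71407764-71407924, with a fold enrichment of 7.94 and a −log10 p of 11.3, and at chr8:71410656-71410920, with 10.8 and 17.4. A further P alone region lay 1.78 kb above the central stretch, at chr8:71432346-71432899, with a fold enrichment of 17.0, a −log10 p of 32.4 and 25 fragments. Another lay 3.70 kb below it, at chr8:71400204-71400598, with a fold enrichment of 9.49 and a −log10 p of 16.2.

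The remaining P alone regions of Lpl stood in 2 groups. Below the central stretch were chr8:71305169-71305327 (fold enrichment 5.33, −log10 p 8.41), chr8:71357428-71357599 (11.9, 24.4), chr8:71373848-71374143 (7.99, 16.3) and chr8:71376711-71376920 (7.49, 11.3). The same side held chr8:71389849-71390088 (4.66, 6.68) and chr8:71390336-71390508 (7.99, 12.5), which include the weakest P alone region of all 5 loci. Toward the upper end of the window were 6 more, between 79.0 and 94.4 kb above the central stretch, where C cells had no listed peak. These were chr8:71509847-71510028 (8.69, 14.0), chr8:71518905-71519110 (8.99, 15.0), chr8:71519657-71519993 (5.99, 8.0), chr8:71521383-71521652 (19.5, 40.3), chr8:71524560-71524861 (17.0, 37.4) and chr8:71525178-71525555 (15.0, 28.3). The peak of fold enrichment 19.5, with 31 fragments (21.1 to 44.0), was the strongest P alone region at any of the 5 loci. Its −log10 p of 40.3 lay well above the lowest value listed in C cells, 5.0, and the fragments of C cells there are not in a peak list.

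The group near the upper end of the Lpl window continued beyond it. The next region outside, 3.61 kb past the end at chr8:71534607-71535009, was shared, with a fold enrichment of 16.3 for C cells and 23.3 for P cells and a −log10 p of 33.3 and 50.1. A region at chr8:71536607-71536896, 5.61 kb past the end, was listed in P cells already at day −2, with a fold enrichment of 10.4, a −log10 p of 17.7 and 18 fragments. At 4 h it was listed in both cell types, with a fold enrichment of 19.8 for C cells and 28.0 for P cells and with 35 and 55 fragments. The window end thus excluded the nearest peak present before induction. At the other 4 loci the nearest day −2 peak of either cell type was at least 260 kb from the window.

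At Fabp4, the gene of the fatty acid-binding protein, few peaks were listed in either cell type. The window chr3:10104000-10309000 held 1 C peak and 4 P peaks, a ratio of 4.00 (0.396 to 197). Among windows with 1 C peak elsewhere, 18.5% of 2280 had at least 4 P peaks. With lists of the same length Fabp4 kept 1 P peak, which 72.3% of those windows reached. The shared region spanned chr3:10247292-10247471 in C cells and chr3:10247248-10247479 in P cells, 38.4 kb above the central stretch. Fold enrichment there was 8.52 for C cells and 12.0 for P cells, and −log10 p was 15.0 and 22.8. The 16 fragments (9.15 to 26.0) of C cells and 23 (14.6 to 34.5) of P cells had overlapping intervals, and the ratio was 1.44 (0.727 to 2.91). A difference between C and P cells was therefore not detectable at this region at this depth.

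The 3 P alone regions of Fabp4 were all modest, with 12 to 14 fragments each. The nearest lay 7.38 kb above the central stretch at chr3:10216327-10216488, with a fold enrichment of 9.57 and a −log10 p of 14.4. The strongest was at chr3:10231575-10231742, with 10.1 and 15.6. The last, chr3:10290176-10290334, had 7.86 and 11.2. All 4 Fabp4 regions lay on the same side of the central stretch. In RefSeq gene order the genes next to Fabp4 are other members of its family, with Fabp5, Pmp2 and Fabp9 on one side and Fabp12 on the other, so a peak in this window cannot be tied to Fabp4 itself.

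At Scd1, the desaturase gene, C/EBPβ peaks were dense in both cell types and mostly shared. The window chr19:44369000-44583000 held 10 C peaks and 13 P peaks, a ratio of 1.30 (0.527 to 3.31). Each of the 10 C peaks had a P peak on it, and 3 regions were listed in P cells alone. Of the 13 windows elsewhere with 10 C peaks, 8 (61.5%) had at least as many P peaks, and their median was 14. With lists of the same length Scd1 kept 11 P peaks, a number that 4 of the 13 (30.8%) reached. Fold enrichment was higher in P cells at 8 of the 10 shared regions and at least 1.5 times higher at 6, with a median log2 ratio of 0.74. The neighbours of Scd1 in RefSeq order are Scd3, Scd2 and Scd4 on one side and Wnt8b on the other, so this window too may hold sites next to close relatives of the gene.

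The region of highest −log10 p at Scd1 was not the same in C and P cells. In P cells it was region 12, at chr19:44512465-44512806, with a fold enrichment of 40.9, a −log10 p of 104 and 64 fragments. In C cells the matching peak, chr19:44512556-44512793, had a fold enrichment of 13.7, a −log10 p of 38.1 and 40 fragments. The fragments differed less than fold enrichment, with a ratio of 1.60 (1.06 to 2.44) against 2.98, because the input background was 1.99 in C cells and 0.588 in P cells. In C cells the strongest was region 9, at chr19:44463320-44463704, 5.44 kb below the central stretch, with a fold enrichment of 20.5, a −log10 p of 49.3 and 39 fragments (background 0.947). In P cells this region, chr19:44463349-44463767, had a fold enrichment of 13.3, a −log10 p of 35.4 and again 39 fragments (background 2.00). This was the 1 region of the 15 with fold enrichment at least 1.5 times higher in C cells (1.54 times), and its fragment ratio was 1.00 (0.625 to 1.60). The recovered backgrounds rest on few input reads and have no counting interval here, so the gap between them, and the ratios of fold enrichment that turn on it, are not shown to exceed counting error.

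Regions 7, 8 and 10 made up, with region 9, a group of 4 shared regions within 14.2 kb below the central stretch of Scd1. Region 8, chr19:44461734-44462103 in C cells and chr19:44461653-44462082 in P cells, had a fold enrichment of 17.0 and 19.5 and a −log10 p of 39.0 and 45.1, with 33 and 38 fragments (ratio 1.15, 0.703 to 1.89). Region 10, chr19:44464112-44464379 in C cells and chr19:44464082-44464378 in P cells, was the nearest to the central stretch at 4.78 kb. It had a fold enrichment of 11.0 and 14.5, a −log10 p of 21.5 and 29.9 and a fragment ratio of 1.33 (0.730 to 2.47). At neither of these did C and P cells differ beyond counting error. Region 7, chr19:44454643-44454982 in C cells and chr19:44454639-44454910 in P cells, had a fold enrichment of 11.0 and 10.2 and a −log10 p of 21.5 and 30.1. Its fragments were higher in P cells, 40 against 21 (ratio 1.90, 1.10 to 3.40), while its fold enrichment was lower, over a background of 3.00 against 0.995.

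The lower end of the Scd1 window held the shared regions with the highest fragment ratios of this locus. Region 1, chr19:44369000-44369366 in C cells and chr19:44368956-44369457 in P cells, lay at the window end, which the P peak crossed. Its fold enrichment was 4.35 in C cells and 13.6 in P cells, its −log10 p 6.71 and 26.6, and its fragments 12 and 25 (ratio 2.08, 1.01 to 4.55). Region 2, chr19:44370366-44370581 in C cells and chr19:44370359-44370595 in P cells, had a fold enrichment of 11.2 and 23.2, a −log10 p of 22.9 and 59.3 and 23 and 48 fragments (ratio 2.09, 1.24 to 3.59). Both had intervals above 1, and both lay far from the central stretch, at 99.7 and 98.5 kb. Region 4, chr19:44384626-44384789 in C cells and chr19:44384542-44384778 in P cells, had a fold enrichment of 7.85 and 14.4, a −log10 p of 12.7 and 26.7 and a fragment ratio of 1.77 (0.859 to 3.80).

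Above the central stretch of Scd1, regions 11 and 13 completed the shared set. Region 11, chr19:44496783-44497215 in C cells and chr19:44496653-44497273 in P cells, had a fold enrichment of 8.24 and 15.6, a −log10 p of 15.4 and 34.4 and a fragment ratio of 1.78 (0.968 to 3.36). Region 13, chr19:44519050-44519312 in C cells and chr19:44519074-44519291 in P cells, had 10.7 and 16.4, 21.6 and 33.1, and a fragment ratio of 1.27 (0.702 to 2.33). Both intervals included 1. The P alone regions of this locus lay below the central stretch, at chr19:44380629-44380887 (fold enrichment 7.99, −log10 p 12.5), chr19:44386236-44386795 (13.5, 27.0) and chr19:44388900-44389058 (9.77, 15.3). The middle one of these, with 26 fragments, exceeded in −log10 p the C values of 7 of the 10 shared regions of the locus.

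At Plin1, the lipid droplet coat gene, 1 region had the highest P to C ratio of fold enrichment among the 15 shared regions. The window chr7:86765000-86978000 held 1 C peak and 3 P peaks, a ratio of 3.00 (0.241 to 157). Of the 2173 windows elsewhere with 1 C peak, 34.3% had at least 3 P peaks, so the number of peaks was a common one. With lists of the same length Plin1 kept 1 P peak, which 72.4% of those windows reached. Region 3 spanned 212 bp in C cells, chr7:86903207-86903418, and 724 bp in P cells, chr7:86902926-86903649. It had a fold enrichment of 7.69, a −log10 p of 16.4 and 22 fragments (13.8 to 33.3) in C cells. In P cells it had a fold enrichment of 51.6, a −log10 p of 145 and 86 fragments (68.8 to 106). The intervals of the fragments lay far apart. The summits were 17 bp apart, but the peaks overlapped over only 29.3% of the wider one, so this region, alone among the 15, does not count as shared where an overlap of at least 50% of both peaks is required.

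The P to C ratio at Plin1 region 3 was 6.71 for fold enrichment and 3.91 (2.42 to 6.56) for fragments. Of the 11517 shared regions elsewhere, 0.0955% had a ratio of fold enrichment at least as high and 1.09% a ratio of fragments at least as high. The ratios differed because the background was 1.99 in C cells but 0.684 in P cells, a background ratio of 0.343. By fragments, Lpl region 13 had a higher ratio, at 4.42, but its summits in the 2 lists were 217 bp apart. Among shared regions with summits within 100 bp, Plin1 region 3 had the highest ratio by fragments too, before Lpl region 3 at 2.32. The background gap is not shown to exceed counting error, and neither is the excess of the Plin1 ratio of fold enrichment over its ratio of fragments. By −log10 p the peak was number 215 in the P list, within its top 0.805%, and number 6813 in the C list. It lay 25.2 kb above the central stretch of the window. In RefSeq order Pex11a, a peroxisome gene, and Wdr93 follow Plin1 on one side and Kif7 lies on the other, and which of them the region is nearest to was not analysed here. The P alone regions, chr7:86772401-86772589 (fold enrichment 8.43, −log10 p 12.1) and chr7:86804955-86805134 (5.99, 10.3), lay 92.5 and 60.0 kb below the central stretch.

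At Adipoq, the gene of adiponectin, C and P cells had no region in common. The window chr16:23046000-23259000 held 2 C peaks and 2 P peaks, a ratio of 1.00 (0.0725 to 13.8), and of the 1276 windows with 2 C peaks elsewhere 91.2% had at least 2 P peaks. With lists of the same length Adipoq kept 0 P peaks. Its neighbours in RefSeq order are Rfc4 and St6gal1, and these peaks too cannot be tied to Adipoq itself. Both C alone regions of the 5 loci were here. They spanned chr16:23159857-23160134, with a fold enrichment of 7.26, a −log10 p of 11.2 and 11 fragments, and chr16:23167326-23167515, with 7.02, 11.4 and 13 fragments. They lay 0.997 and 8.43 kb above the central stretch. The P alone regions were on the other side, at chr16:23106294-23106479 (fold enrichment 7.99, −log10 p 12.5, 15 fragments) and chr16:23144540-23144704 (8.55, 12.6, 13 fragments), 39.6 and 1.37 kb below it. All 4 peaks were weak, under the median −log10 p of their lists, which was 16.4 for C cells and 20.0 for P cells. At such values a peak listed in only 1 library is not shown to differ between the cell types.

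Of the 43 regions, 12 lay inside the central stretch or within 10 kb of it, and these were 5 at Lpl, 3 at Scd1, 3 at Adipoq, 1 at Fabp4 and 0 at Plin1. The stretches differ in length, from 5.0 kb at Fabp4 to 27.0 kb at Lpl. The number to be expected from length alone was not computed, so these counts do not show that peaks lie closer to the stretch than elsewhere in a window. The shared regions with the highest P fold enrichment, at Plin1, Scd1 and Lpl, lay 25.2, 29.7 and 31.1 kb from the stretch.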

How the data were processed

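C/EBPβ ChIP-seq was carried out in C and P cells at day −2 and 4 h, with 1 ChIP and 1 input sample per condition, grouped by the sample labels. The authors sequenced on an Ion Torrent instrument, aligned to mm9 with Bowtie 0.12.8, removed duplicates with Samtools, down-sampled the libraries to equal numbers of mapped reads and called peaks per condition with MACS2 2.0.10.20131028. SAMtools 1.3.1 is named in the submitters' processing notes. The deposited fold enrichment is a ratio of ChIP to input at the summit, and the deposited −log10 p and −log10 q are those of the authors' peak caller. No pooling of samples is stated.

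Python 3.11.15 was used with pandas 2.3.3 and numpy 2.4.6. Fragments and background at each summit were solved for from the fold enrichment with its −log10 p (scipy 1.17.1). Depth was derived from the genome background and an effective genome size of 2.7e+09 bp. The recovery was tested on simulated data. Intervals are 95%, Poisson for fragments, Clopper-Pearson for ratios and Wilson for shares. The intervals take the fragments left after removal of duplicates as independent molecules, which could not be checked without molecular identifiers. They cover counting error only. Windows elsewhere tiled chromosomes 1 to 19 and X, and their shares are descriptions and no test. Every region was given its position and values. The genes, windows and lists were chosen with earlier results of these data known. Gene order and names came from a RefSeq table of another build, so no coordinates of it are given. Genome sequence, motifs, exons and promoters were not analysed here. Alternatives were other thresholds, overlap rules, window sizes, equal list lengths and leaving out a locus. Figures were drawn with matplotlib 3.10.9.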

Additional observations from a re-analysis of the deposited data

How the results depend on the processing

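Of 158 values under 18 alternatives, 135 stayed within their error or within 1.5 times, 23 moved and 0 changed sign. A threshold of −log10 q of at least 2 removed no peak of the 5 loci and left every value as it was, so it could not show a change. A change of sign could be recorded only for the P to C ratio of peaks and the log2 ratio, not for counts or shares. With −log10 p of at least 10, 0.423% of windows elsewhere reached the P peaks of Lpl. Windows shortened by 50 kb at each end held 12 P peaks and 3 C peaks at Lpl. They held 7 of each at Scd1 and 1 of each at Plin1. The P to C ratio over the 5 loci was then 1.79 (0.893 to 3.72), an interval that included 1. Lengthened windows held 5 C peaks at Lpl and 1 day −2 P peak. With lists of the same length the P to C ratio was 1.24 and the P alone share 26.1%. At that setting the ratio over the whole lists is 1 by construction, and the P alone share elsewhere was not computed. With the full lists the P alone share was 41.7% without Lpl and 76.7% without Scd1. Against only windows with a 4 h peak, the shares in C and P cells were 73.4% and 37.3% at Fabp4, 44.0% and 71.6% at Adipoq, 27.7% and 0.398% at Lpl, 0.695% and 2.22% at Scd1, and 73.7% and 52.6% at Plin1. By summed fold enrichment in P cells they were 0.493% at Lpl, 0.806% at Scd1 and 15.1% at Plin1. The shares against windows with a peak rise because fewer windows are counted; for the others the cause was not tested. The comparison with windows of as many C peaks, chosen after seeing the data, gave 20 further values, of which 4 moved, all with lists of the same length (72.3% at Fabp4, 0.408% at Lpl, 30.8% at Scd1 and 72.4% at Plin1).

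No paired analysis was possible because each condition has 1 library. The spread between cultures is unknown, and the lists do not give fragments at sites under the authors' p threshold.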
